A study of Arabidopsis thaliana with 6 samples.

Results

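Defensins and thionins are small, secreted, cysteine-rich peptides that act against fungi and bacteria. In Arabidopsis thaliana the defensin gene PDF1.2 is the standard marker of the joint jasmonate and ethylene response, in which EIN3 and transcription factors of the ERF family switch it on. The thionin gene THI2.1 is induced by jasmonate through the receptor COI1, and its transcript is best known from flowers and siliques. These pathways act against the salicylate pathway at several points.

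Of 13286 genes measured by a probe set paired with 1 gene, 4 genes are described here: the thionin-family gene AT1G66100, the thionin gene THI2.1 (AT1G72260) and the defensin genes PDF1.2 (AT5G44420) and PDF1.2b (AT2G26020). They were chosen by name with their difference between pkl-1 and wild type already known, so their levels and differences are a description and carry no test. Each had 1 probe set, among the 22746 probe sets tested. The probe sets were 256527_at for AT1G66100, 259802_at for THI2.1, 249052_at for PDF1.2 and 257365_x_at for PDF1.2b. Affymetrix gives the ending _x_at to a set in which some probes also match other transcripts and _s_at to a set whose probes all match several transcripts of a family. The level of PDF1.2b is therefore open to cross-hybridisation by transcripts of related defensin genes. No probe set of the 4 genes ended in _s_at.

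The study compared whole seedlings of the mutant pkl-1 with the wild type Col-0, both aged 14 days and without treatment, using 3 Affymetrix arrays per genotype. The gene PICKLE (PKL), of which pkl-1 is a mutant allele, codes for a CHD3-type ATPase that remodels chromatin. Both genotypes grew from surface-sterilised seeds on Murashige and Skoog plates under light for 24 hours a day. The labels call the arrays of a genotype biological replicates and do not say whether these came from separate sowings. Values are GCRMA levels in log2 units as deposited, so that a difference of 1 unit is a doubling.

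Array medians lay between 5.03 and 5.13 log2 units, and the arrays correlated at 0.985 to 0.994 within genotypes and 0.975 to 0.989 between them. The probe set of PKL was not named in the sources used here, so the genotype labels were not checked against it. Leaf and root markers were present: RCA, the activase of Rubisco, had mean levels of 13.24 in wild-type arrays and 13.20 in pkl-1 arrays, and PYK10, a root beta-glucosidase, of 11.95 and 11.96. Of 6 leaf markers 2 were measured, and their summed linear signal was lower in pkl-1 (13714 to 14859) than in wild type (15766 to 16876). RCA, the brighter of the 2, had overlapping groups (-0.03 ± 0.06 log2 units, SE; limma adjusted p = 0.845). The antenna protein gene LHCB4.2 was the one that passed (-0.50 ± 0.09 log2 units, SE; limma adjusted p = 0.0355, a call lost when pkl-1 replicate 2 or one of the wild-type arrays was left out, with values up to 0.122, and at 0.111 with a variance prior that did not depend on the mean). The sum over 3 of 8 root markers overlapped between genotypes, at 3772 to 4386 in pkl-1 and 3538 to 4277 in wild type. Nearly all of this linear sum is PYK10. The dimmer root markers EXPA7 and EXPA18 had differences of -0.33 ± 0.28 and -0.17 ± 0.25 log2 units (SE), with overlapping groups. None of the 8 floral markers was measured by a probe set paired with 1 gene. Whether a shift in the share of leaf tissue enters the differences below was not tested, and in whole seedlings fewer cells of a type and less RNA per cell cannot be told apart.

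AT1G66100 was strongly expressed in wild type and much lower in pkl-1. The wild-type arrays stood at 10.81, 11.14 and 10.57 log2 units (replicates 1, 2 and 3), and the pkl-1 arrays at 7.58, 7.54 and 7.19. The groups were far apart, with 2.99 log2 units between the lowest wild-type array and the highest pkl-1 array. Means were 10.84 ± 0.29 for wild type and 7.43 ± 0.21 for pkl-1 (SD, n = 3 each), and the difference was -3.41 ± 0.17 log2 units (moderated SE). The linear signal in pkl-1 was 9.42% of that in wild type. Of all 22746 probe sets, only 2 had a lower difference than this thionin-family gene.

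PDF1.2 was also lower in every pkl-1 array. Its wild-type arrays stood at 7.95, 7.93 and 7.44 log2 units, and its pkl-1 arrays at 5.89, 6.31 and 6.42. The groups did not overlap, and 1.02 log2 units separated the nearest arrays. Means were 7.77 ± 0.29 for wild type and 6.21 ± 0.28 for pkl-1 (SD, n = 3 each), with a difference of -1.56 ± 0.20 (SE). The signal in pkl-1 was 33.8% of that in wild type.

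PDF1.2b moved in the same direction. Its wild-type arrays stood at 8.42, 8.22 and 7.83 log2 units, and its pkl-1 arrays at 5.31, 6.32 and 6.44. Replicate 1 was the lowest of the pkl-1 arrays and lay more than 1 unit below the others, and the groups were 1.39 units apart. Means were 8.16 ± 0.30 for wild type and 6.03 ± 0.62 for pkl-1 (SD, n = 3 each), with a difference of -2.13 ± 0.31 (SE), with a pkl-1 signal at 22.8% of wild type. The spread of PDF1.2b in pkl-1 was wide for this array, since 97.0% of probe sets had a smaller SD among the pkl-1 arrays. Without pkl-1 replicate 1 the difference was -1.77 ± 0.20.

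THI2.1 was dim in both genotypes. Its wild-type arrays stood at 2.00, 1.87 and 1.81 log2 units, and its pkl-1 arrays at 2.19, 2.09 and 2.79. All pkl-1 arrays lay above all wild-type arrays, but the nearest were only 0.089 units apart, and pkl-1 replicate 3 was well above the rest. Means were 1.89 ± 0.10 for wild type and 2.36 ± 0.38 for pkl-1 (SD, n = 3 each), with a difference of 0.46 ± 0.19 (SE). Without pkl-1 replicate 3 the difference was 0.25 ± 0.13. The mean level of THI2.1 was below 2.14 log2 units, the 25th percentile of probe set means, a range in which GCRMA values are compressed and differences depend on the background it estimates.

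**Figure D1:**
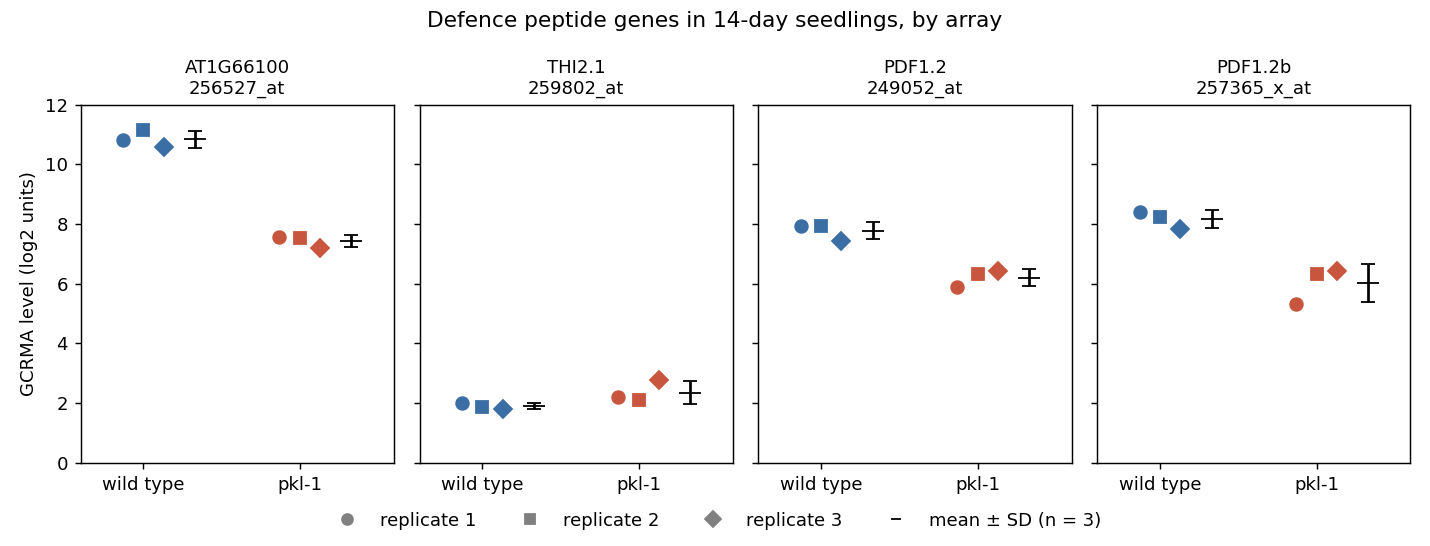
GCRMA levels in log2 units (vertical axis) of the 4 defence peptide genes in wild-type (blue) and pkl-1 (red) seedlings, with 1 point per array, a marker shape per replicate number, and the mean ± SD (n = 3) in black. AT1G66100, PDF1.2 and PDF1.2b were lower in all pkl-1 arrays, AT1G66100 by the most, while THI2.1 stayed below 3 log2 units in all 6 arrays.

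In the limma fit over all probe sets, 2.37% passed an adjusted p of 0.05, 1.06% as higher and 1.31% as lower in pkl-1. Of the 4 genes 3 passed, all lower, and THI2.1 did not. Without pkl-1 replicate 2 or without wild type replicate 2 only 1 passed, AT1G66100. With all 6 arrays, AT1G66100 alone was under the stricter threshold of 0.01. All 4 had groups that did not overlap, which held for 21.0% of all probe sets. Because the genes were chosen on this contrast, nothing is read from these counts.

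Leaving out 1 array at a time kept the sign of all 4 differences. The difference of AT1G66100 then ran from -3.55 to -3.26 log2 units, that of PDF1.2 from -1.73 to -1.41 and that of PDF1.2b from -2.34 to -1.77. THI2.1 ran from 0.25 to 0.60. The ranges of PDF1.2 and of AT1G66100 were narrow beside their differences, and that of THI2.1 was not.

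**Figure D2:**
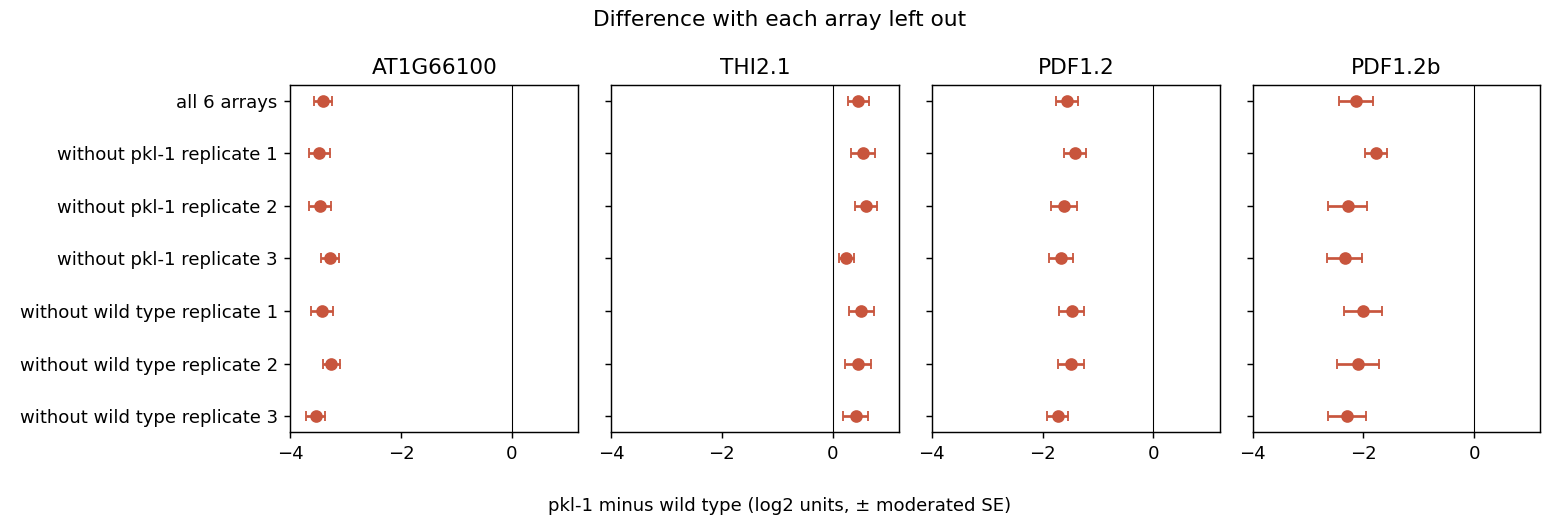
Difference of pkl-1 minus wild type in log2 units (horizontal axis) with its moderated SE for each defence peptide gene, from all 6 arrays (top) and with each array left out (below). The differences of AT1G66100 stay between -3.55 and -3.26, and that of THI2.1 drops to 0.25 without pkl-1 replicate 3.

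The defensin probe sets also moved alike among the arrays of one genotype. The size of the difference between genotypes does not use these deviations, but its SE and p do. In wild type, replicate 3 was the lowest array for all 4 genes, and for both defensins it lay at -0.33 log2 units from the genotype mean. In pkl-1, replicate 1 was the lowest for both, at -0.31 for PDF1.2 and -0.71 for PDF1.2b. Across the 6 deviations from the genotype means, PDF1.2 and PDF1.2b had a Pearson correlation of 0.92. This is a description from 6 arrays, and the probe sets share the arrays, their RNA and possibly transcripts that bind to both.

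AT1G66100 went apart from them in pkl-1. There its lowest array was replicate 3 (-0.24), which was the highest for both defensins (0.21 and 0.42). Over the 6 arrays of both genotypes together, its deviations correlated at 0.16 with those of PDF1.2 and at -0.14 with those of PDF1.2b. THI2.1 was highest in pkl-1 replicate 3 as well, at 0.43 above its mean, and its deviations correlated at 0.52 and 0.51 with those of PDF1.2 and PDF1.2b. Over the raw levels of the 6 arrays the correlation of AT1G66100 with PDF1.2 was 0.96, which the difference between genotypes by itself makes high.

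**Figure D3:**
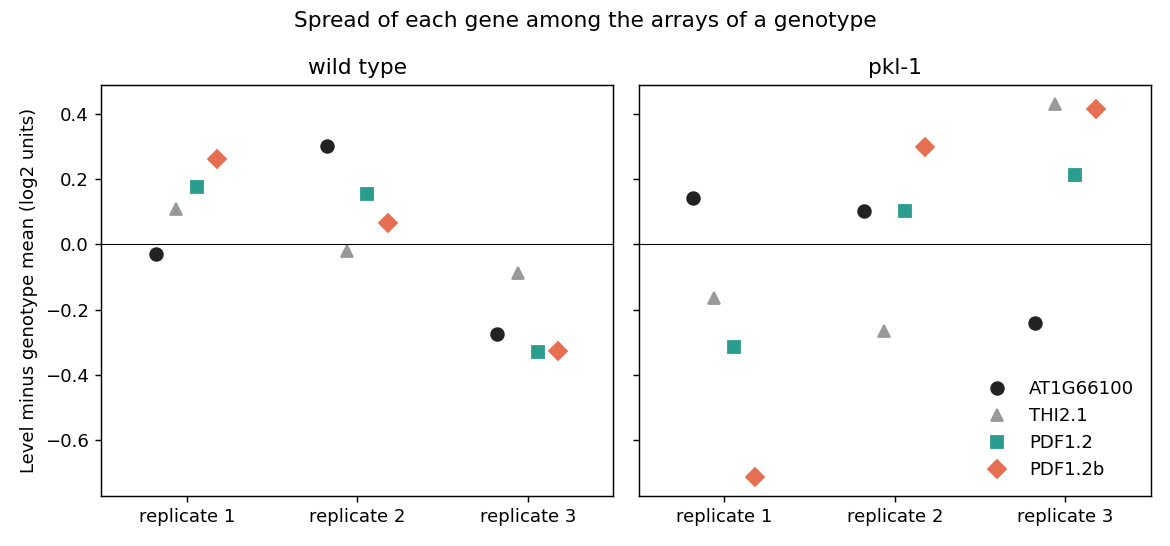
Level of each defence peptide gene minus the mean of its genotype, in log2 units (vertical axis), for the 3 wild-type (left) and the 3 pkl-1 arrays (right), 1 marker per gene. PDF1.2 and PDF1.2b lie on the same side of 0 in all 6 arrays, while AT1G66100 is low where they are high in pkl-1 replicate 3.

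Of the probe sets tested, 126 ended in _x_at, of which 110 were paired with 1 gene, and 935 in _s_at, of which 421 were paired with several genes and 173 with 1. An adjusted p under 0.05 was reached by 0.794% of the _x_at sets, 2.57% of the _s_at sets and 2.37% of those ending in _at. The probe set of PDF1.2b was the 1 _x_at set that passed. The closest relatives PDF1.2c and PDF1.3, which had no probe set paired with that gene alone, were not analysed here. In the gene order of the TAIR10.1 table PDF1.2c lies next to PDF1.2 and PDF1.3 next to PDF1.2b. How far their transcripts enter the signals of PDF1.2 and PDF1.2b was not tested.

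The other measured genes of the PDF defensin list had differences of both signs. Of the 13 other PDF genes listed, 10 were measured. In limma with adjustment over all probe sets, 1 of these rose in pkl-1, 0 fell and 9 did not pass, where 1.06% of all probe sets rose and 1.31% fell. An unadjusted p under 0.05 was found for 6 of the 10 and for 14.9% of all probe sets. Their median difference was 0.08 log2 units, beside 0.01 over all probe sets. All pkl-1 arrays lay above all wild-type arrays in 3 of the 10 and below them in 3, where 10.6% and 10.4% of all probe sets did so.

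The defensin that rose was LCR69, also named PDF2.2. Its wild-type arrays stood at 11.37, 11.24 and 11.21 log2 units and its pkl-1 arrays at 11.80, 11.90 and 11.67. The groups did not overlap, and the difference was 0.52 ± 0.08 (SE; limma adjusted p = 0.0231). The call ended without pkl-1 replicate 1 or 2 or without wild type replicate 2 or 3 (adjusted p 0.0701 to 0.106) and with a variance prior that did not depend on the mean (0.0795).

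Of the other measured members of the PDF2 group, LCR68, PDF2.5 and PDF2.1 had negative differences without passing. LCR66 and LCR72, described below, had positive ones (0.52 and 0.14 log2 units) and did not pass either. LCR68, also named PDF2.3, was at 10.77 ± 0.19 for wild type and 10.46 ± 0.10 for pkl-1 (SD, n = 3 each), with a difference of -0.31 ± 0.11 log2 units (limma adjusted p = 0.221). PDF2.5 was at 6.49 ± 0.23 and 5.72 ± 0.10, a difference of -0.76 ± 0.17 (0.0692). PDF2.1 was at 5.91 ± 0.31 and 5.36 ± 0.21, a difference of -0.55 ± 0.21 (0.272). In all 3 genes the pkl-1 arrays lay below the wild-type arrays. With the replicate number as a block, LCR68 and PDF2.5 passed (limma adjusted p = 0.0373 and 0.0308) and PDF2.1 did not (0.134).

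PDF1.4 had low levels that were above the 25th percentile of probe set means. It was at 2.53 ± 0.12 for wild type and 3.16 ± 0.02 for pkl-1 (SD, n = 3 each), with a difference of 0.63 ± 0.14 log2 units (limma adjusted p = 0.0710, and 0.0394 with a variance prior that did not depend on the mean). LCR66, also named PDF2.4, was dim, at 1.34 ± 0.15 and 1.86 ± 0.19, a difference of 0.52 ± 0.13 (0.0980). Both had pkl-1 arrays above all wild-type arrays. The other measured genes of the defensin list, LCR67 (PDF1.1), LCR72 (PDF2.6), LCR80 and LCR59, were dim too. Their levels were between 1.25 and 2.28 in all 6 arrays, with overlapping groups and differences of 0.00 to 0.18 in size.

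Among the thionins, both remaining members of the list were measured and neither passed. THI2.2, the close relative of THI2.1, stood at 6.78, 6.89 and 6.40 log2 units in wild type and 6.49, 6.15 and 6.22 in pkl-1. The groups overlapped, and the difference was -0.40 ± 0.18 (SE; limma adjusted p = 0.358). AT2G15010, placed in the thionin list, was dim at 1.55 to 2.33 in all arrays, with a difference of -0.34 ± 0.19 (0.478). Neither had an unadjusted p under 0.05 in limma, and no test compared the thionins with each other.

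Of 81 further genes listed for the jasmonate, ethylene, salicylate and camalexin pathways, 6 were measured by a named probe set. In limma 0 of the 6 passed over all probe sets, where 2.37% of all probe sets did, and 2 had an unadjusted p under 0.05, MYC3 and SAG101, beside 14.9% of all probe sets. The median difference of the 6 was 0.42 log2 units, beside 0.01 over all probe sets. Most of the regulators known for PDF1.2 and THI2.1, among them COI1, MYC2, ERF1 and ORA59, had no probe set paired with that gene alone. They were not analysed here. The annotation used left 8730 of the 22746 probe sets without a gene name and paired 503 with several genes, so the array may still hold probes for them.

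In jasmonate synthesis and signalling, OPCL1, a CoA ligase on the path to jasmonate, stood at 7.78, 9.16 and 9.44 log2 units in wild type and 8.84, 9.51 and 10.21 in pkl-1. The groups overlapped widely, with a difference of 0.73 ± 0.47 (SE; limma adjusted p = 0.539). With the replicate number as a block, the SE of OPCL1 was 0.13 and its limma adjusted p 0.0172. MYC3, a bHLH activator of jasmonate responses, stood at 7.21, 7.15 and 7.14 in wild type and 7.57, 7.80 and 7.46 in pkl-1. All its pkl-1 arrays were higher, and the difference was 0.44 ± 0.13 (0.155). The related factor MYC4 was at 0.40 ± 0.32 (0.633), with overlapping groups.

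EIN3, the ethylene transcription factor upstream of the ERF genes, had close mean levels, at 9.27 ± 0.13 for wild type and 9.34 ± 0.12 for pkl-1 (SD, n = 3 each), with a difference of 0.08 ± 0.11 log2 units (limma adjusted p = 0.813). On the salicylate side, SAG101, a partner of EDS1 in immune signalling, was at 4.71 ± 0.44 and 5.59 ± 0.50, a difference of 0.88 ± 0.32 (0.237). With the replicate number as a block, the SE of SAG101 was 0.17 and its limma adjusted p 0.0225. GRX480, a glutaredoxin that can repress PDF1.2 when overexpressed, was at 3.01 ± 0.13 and 3.28 ± 0.91, a difference of 0.27 ± 0.41 (0.823). The spread of GRX480 in pkl-1 came from replicate 2, which stood at 4.27 beside 2.48 and 3.09, and without it the difference was -0.22.

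**Figure D4:**
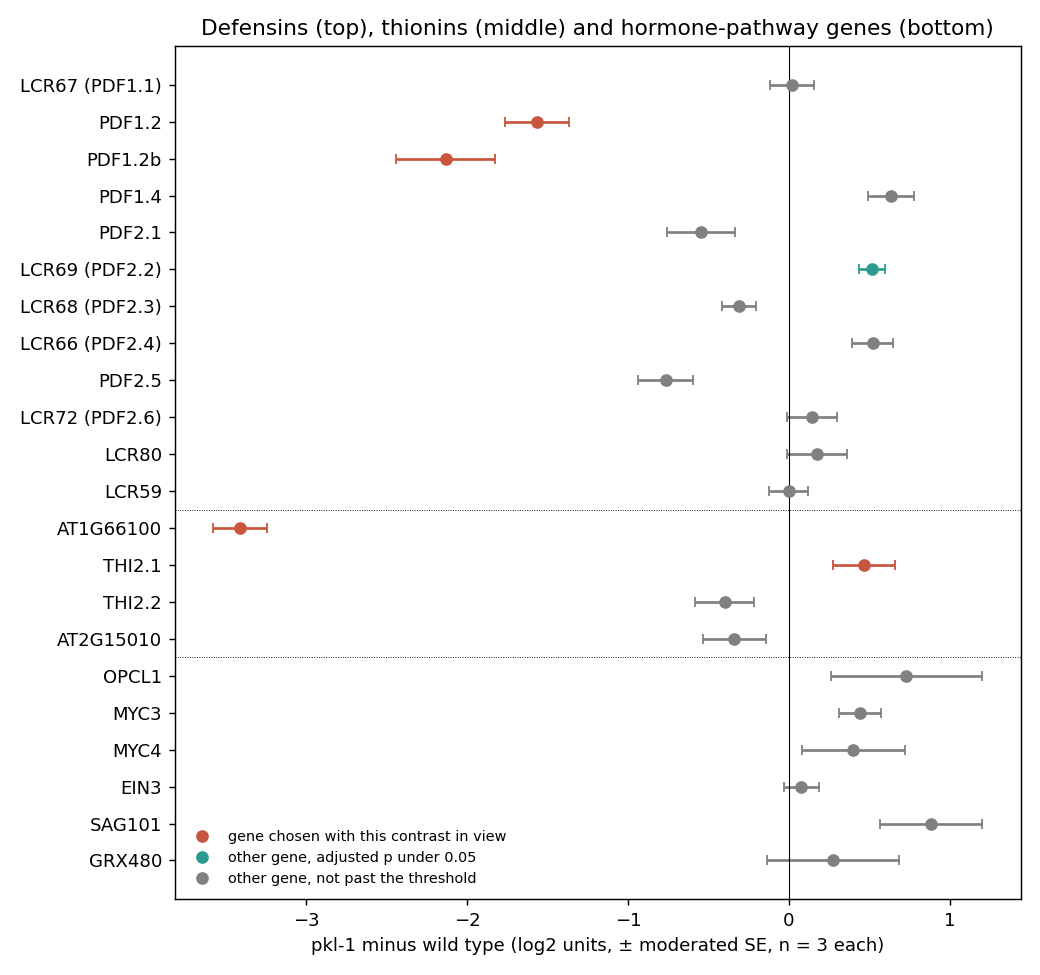
Difference of pkl-1 minus wild type in log2 units (horizontal axis, ± moderated SE, n = 3 each) for the measured genes of the defensin, thionin and hormone-pathway lists. The genes chosen with this contrast in view are red, LCR69 is the 1 other gene that passed, and the remaining defensins lie on both sides of 0, between -0.76 and 0.63.

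Genes beside the 4 in the gene order were examined up to 5 positions on either side. Of these 40 neighbours 21 had a probe set paired with 1 gene. In limma 1 of the 21 passed over all probe sets, while 2 had an unadjusted p under 0.05. Over all probe sets the shares were 2.37% and 14.9%, so that 1 of 21 is close to the background. The one that passed, AT2G25980, lies 4 genes from PDF1.2b and was at 7.85 ± 0.13 for wild type and 6.98 ± 0.25 for pkl-1 (SD, n = 3 each). Its difference was -0.87 ± 0.16 log2 units (SE; limma adjusted p = 0.0374), and the call ended without any 1 of the 6 arrays (0.0727 to 0.114). AT1G66110, next to AT1G66100, was dim and at -0.06 ± 0.14, and AT1G72250 and AT1G72270, on either side of THI2.1, were at -0.20 ± 0.30 and 0.10 ± 0.11. RTE1, a regulator of the ethylene receptor ETR1 that lies 5 genes from PDF1.2b, was at -0.25 ± 0.17 (0.573).

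**Figure D5:**
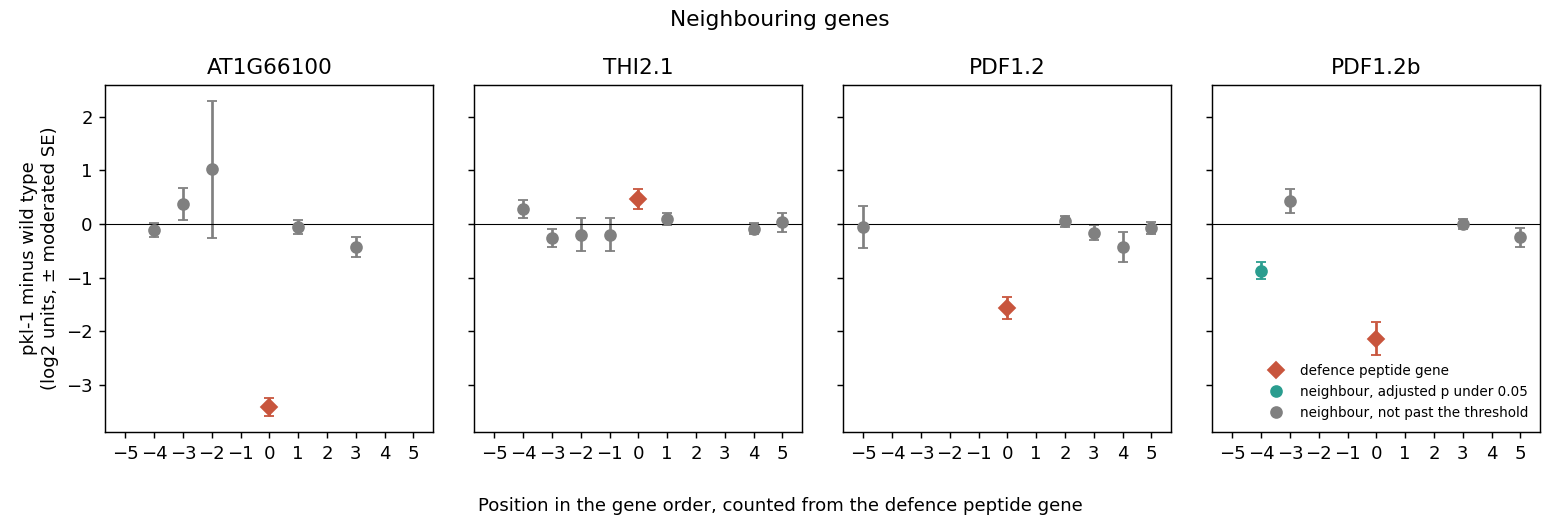
Difference of pkl-1 minus wild type in log2 units (vertical axis, ± moderated SE, n = 3 each) for the 4 defence peptide genes (red diamonds, position 0) and the measured genes up to 5 positions away in the gene order (horizontal axis). AT2G25980, at -0.87 and 4 genes from PDF1.2b, is the 1 neighbour that passed, and the other measured neighbours lie between -0.43 and 1.02.

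The genes most alike in pattern were taken by Pearson correlation of levels over the 6 arrays, among probe sets paired with 1 gene and with an SD of at least 0.5 log2 units. As the pattern is mostly the difference between genotypes, this is a description. For AT1G66100 they were AT3G57160, AT5G38900 and AT5G47550, with correlations of 0.998, 0.997 and 0.994 and differences of -1.04, -1.54 and -0.94 log2 units, all smaller in size than its own. For PDF1.2 they were PDF1.2b (0.990), AT2G16630 (0.984) and AT1G68710 (0.977). For PDF1.2b they were PDF1.2, AT4G11210 (0.974) and AT2G16630 (0.973), so that AT2G16630, at -1.32 log2 units, was on both lists. For THI2.1 they were AT1G17665 (0.986), AT1G33770 (0.981) and the phytochrome A signalling gene FHL (0.972). Each of these 3 was highest in pkl-1 replicate 3, the same array that was highest for THI2.1. Their choice by correlation with THI2.1 favours genes with this peak, so nothing is read from it.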

How the data were processed

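Per the submitters' processing notes, the authors made the deposited log2 signals per probe set with GCRMA, which corrects background by probe sequence, normalizes arrays and summarises probes; its version and the array's annotation build were not given in the sources used here. The log2 scale was read from the values, 0.597 to 13.7. Labels' protocols give RNA from a column kit and standard biotin labelling. Of 22810 probe sets 64 controls were left out. The platform annotation paired 13513 with 1 gene, 13436 of them with a locus in the TAIR10.1 gene table. It paired 503 with several genes and 8730 with none, and no gene was reported from these. No coordinates are printed, as the builds may differ.

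limma 3.58.1 in R 4.3.3 (lmFit, eBayes with a mean-dependent prior) compared pkl-1 with wild type over all 22746 probe sets, 2-sided, with Benjamini-Hochberg adjustment and a threshold of 0.05; it was tested on simulated data. Arrays have no read depth, and 3 per genotype limit the precision (median SE 0.156). The brightest probe set stood for a gene.

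The genes and lists were chosen with earlier results of these data known. Named are the 4 genes, all measured genes of the PDF defensin and thionin lists, and passing or brightest genes of the other lists. Also named are the 3 most alike patterns per gene and neighbours within 5 loci, some of which are summarised only. Defensin-like genes outside the lists were not examined. Alternatives were other variance priors, omitting dim probe sets, quantile normalization, median centring, array weights, a replicate block, each array left out, and a threshold of 0.01. Figures used matplotlib 3.10.9 in Python 3.11.15.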

Additional observations from a re-analysis of the deposited data

How the results depend on the processing

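The 4 differences kept their sign in all fits that included the gene and moved by less than the spread between replicates, with the array left out as given above; without the dim probe sets THI2.1 had no value. Changed probe sets numbered 540 in all, and 470 to 652 under other variance priors, rescaling, array weights and without dim probe sets. It was 111 at an adjusted p under 0.01 and 123 to 303 with 1 array left out (lowest without pkl-1 replicate 2, at 123, and wild type replicate 2, at 132, and 219 to 303 without another array). The 18 measured list genes other than the 4 gave 1 call, LCR69, in limma, 0 at an adjusted p under 0.01 (8 at an unadjusted p under 0.05), and 0 to 1 with 1 array left out, being 0 without pkl-1 replicate 1 or 2 or wild type replicate 2 or 3, where 6 to 10 had an unadjusted p under 0.05. With a prior that did not depend on the mean the 1 call was PDF1.4 in place of LCR69.

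In a fit with a replicate block, 1518 probe sets and 5 list genes passed (LCR69, LCR68, PDF2.5, OPCL1 and SAG101), and the same 3 of the 4 genes. The cause was not tested. Deviations from the genotype means correlated at 0.49 between the replicates numbered 1, at -0.02 between those numbered 2 and at 0.58 between those numbered 3. They correlated at -0.56 between pkl-1 replicate 1 and wild type replicate 3, and at -0.51 between pkl-1 replicate 3 and wild type replicate 1. Each replicate 2 correlated best with an array of another number, but only at 0.10 (pkl-1) and 0.04 (wild type). Deviations cancel out within a genotype, so all these correlations depend on each other and do not by themselves decide whether the arrays were paired. The labels state no pairing, and the SE and p values given above come from the fit without the block. Whether the replicates numbered 1, or those numbered 3, share more than a number was not tested.

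Alternatives were run for 34 genes, which are the 4, the measured list and marker genes, AT2G25980 and 6 other neighbours. Sign changes, 13 among 433 values, occurred in genes that had not passed. LCR67 was at -0.0071 after quantile normalization and -0.096 to 0.076 with 1 array left out, LCR59 at 0.0038 with array weights and -0.065 to 0.11, GRX480 at -0.22 to 0.68, PYK10 at -0.071 to 0.068, AT1G66090 at -0.58 to 2.03, AT1G66110 at -0.14 to 0.064 and AT1G72250 at -0.43 to 0.075 with 1 array left out. The alternatives for neighbours and marker genes were added after seeing the data. Signal near the lower end limits THI2.1 and LCR66.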

Other observations

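AT1G66090, which lies 2 genes from AT1G66100, varied more among arrays of one genotype than between genotypes. Its wild-type arrays stood at 3.1, 7.46 and 8.30 log2 units and its pkl-1 arrays at 6.07, 7.20 and 8.65 (replicates 1, 2 and 3). In both genotypes replicate 1 was the lowest and replicate 3 the highest array, and the difference of 1.02 ± 1.28 (SE; limma adjusted p = 0.783) lay within this spread. AT1G66100 did not share this order.

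CML43, a calmodulin-like gene that lies 4 genes from PDF1.2, stood at 3.64 log2 units in wild type replicate 1 and between 2.44 and 2.87 in the other 5 arrays. Its difference was -0.43 ± 0.28 (limma adjusted p = 0.551).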
